A study of Mus musculus with 27 samples.

Results

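Untreated (naïve) bone marrow-derived macrophages (BMDM) were compared with BMDM that met lipopolysaccharide (LPS) a second time, on the 5 arrays of these groups that shared slides, out of 27 samples in the series. The 3 naïve arrays and replicates 1 and 2 of the LPS re-stimulated group were taken by their labels, not by any measured value. Replicate 3 of the LPS re-stimulated group had scanner intensities but no normalized values in the table used here and did not enter the comparison. The series as a whole asked how macrophages respond when a Toll-like receptor (TLR) ligand is given once or again, with ligands of TLR4 (LPS), TLR9 (CpG DNA), TLR2 (Pam3CSK4) and TLR3 (Poly(I:C)).

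All cells were grown for 7 days from marrow of female C57BL/6 mice aged 6 to 8 weeks, in medium conditioned by L929 cells, a fibroblast line that secretes macrophage colony-stimulating factor. The LPS re-stimulated cells were kept with 100 ng/ml LPS for 24 h, washed, given fresh medium and then given LPS again for 4 h before RNA was taken. The naïve cells received no ligand at any point. The effects of the first and of the second exposure cannot be told apart in this comparison, since neither group had the first exposure alone. The methods state that each replicate culture came from its own pool of marrow from several mice, and elsewhere that each replicate came from a different mouse; p-values measure the spread between these cultures.

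LPS is a lipid of the outer membrane of Gram-negative bacteria that is sensed by TLR4 with its co-receptors CD14 and MD-2. TLR4 signals through the adapter MyD88 to NF-κB and MAP kinases, which drive cytokine genes, and through the adapter TRIF to IRF3, which drives interferon β and through it the interferon-stimulated genes. A macrophage that has met LPS answers a second dose differently: many cytokine genes respond less, a state called endotoxin tolerance, while other genes, antimicrobial ones among them, stay high or respond again.

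Each array carried 55681 probes other than controls, 60 bases long. Levels are given as log2 of the fluorescence intensity after background correction and quantile normalization, and differences as log2 changes, where 1 is a doubling of intensity. The median raw signal was 64, 56 and 106 intensity units on naïve arrays 1, 2 and 3, and 60 and 54 on LPS re-stimulated arrays 1 and 2. The scanner software called 49.4%, 45.8% and 74.6% of probes well above background on the naïve arrays and 47.6% and 42.6% on the LPS re-stimulated arrays, and none as saturated. Naïve array 3 was thus the brightest of the 5.

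Naïve replicate 3 stood apart from the other naïve arrays in its expression as well. Its correlation with naïve arrays 1 and 2 was 0.959 and 0.961 over the probes tested, where those correlated at 0.99 with each other and the LPS re-stimulated arrays at 0.987. It lay more than 1 log2 unit above both other naïve arrays for 1316 probes and below both for 4349, against 577 and 181 for naïve 1 and 282 and 179 for naïve 2.

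Genes of neutrophils, the granulocytes that arise in the same marrow, were among those that differed. S100a9, a calcium-binding protein of neutrophil cytosol, was at 15.63, 16.20 and 4.57 on naïve arrays 1 to 3 and at 15.10 and 14.75 on the LPS re-stimulated arrays. Ltf, the granule protein lactoferrin, was at 10.86, 11.43 and 2.09 against 10.53 and 10.30, and the surface marker Ly6g at 8.91, 9.60 and 2.54 against 11.67 and 12.77. S100a9 split in the same way in the other groups on these slides. Over the 15 arrays on slides 1 and 2, S100a9 lay between 14.25 and 17.57, and over the 7 arrays with deposited values on slide 3 between 4.57 and 8.08. Not every neutrophil marker followed. Elane (12.29, 12.23 and 11.83) and Csf3r (15.67, 15.35 and 15.47) were alike on the 3 naïve arrays and Cxcr2 was highest on naïve 3 (3.54, 4.64 and 5.09), and in CpG re-stimulated cells S100a8 and Camp did not split by slide. The LPS acute arrays, on other slides, had low neutrophil genes in all 3 replicates, with a median level of 4.05, 3.44 and 4.99. All 10 neutrophil markers of the list were tested, with a median level of 11.02, 11.73 and 5.58 on the naïve arrays and 11.45 and 11.80 on the LPS re-stimulated arrays, and 9, 10 and 7 against 9 and 8 of them well above background. Their summed intensity was 125972, 151991 and 50621 against 81349 and 84988, with Csf3r the brightest of their probes on naïve arrays 1 and 3 and S100a9 on the other 3. The macrophage receptor Csf1r did not follow the split: it was at 18.07, 18.04 and 17.87 in naïve and 18.03 and 18.28 in LPS re-stimulated cells. Other macrophage markers did differ. Of 13 tested, naïve 3 lay more than 1 log2 unit above both other naïve arrays for 2 and below both for 4. Emr1 was at 15.64, 15.77 and 17.16 on naïve arrays 1 to 3, and Cx3cr1 at 12.14, 13.03 and 8.98. In such bulk RNA, fewer cells of a type and less RNA per cell cannot be told apart. All slide 3 arrays are replicate 3 of their groups, so that slide and culture cannot be told apart either. Both LPS re-stimulated arrays belong to replicates 1 and 2, so the counts of genes called are also given without naïve 3; the part of its brightness or of its neutrophil genes in single results was not tested.

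**Figure D1:**
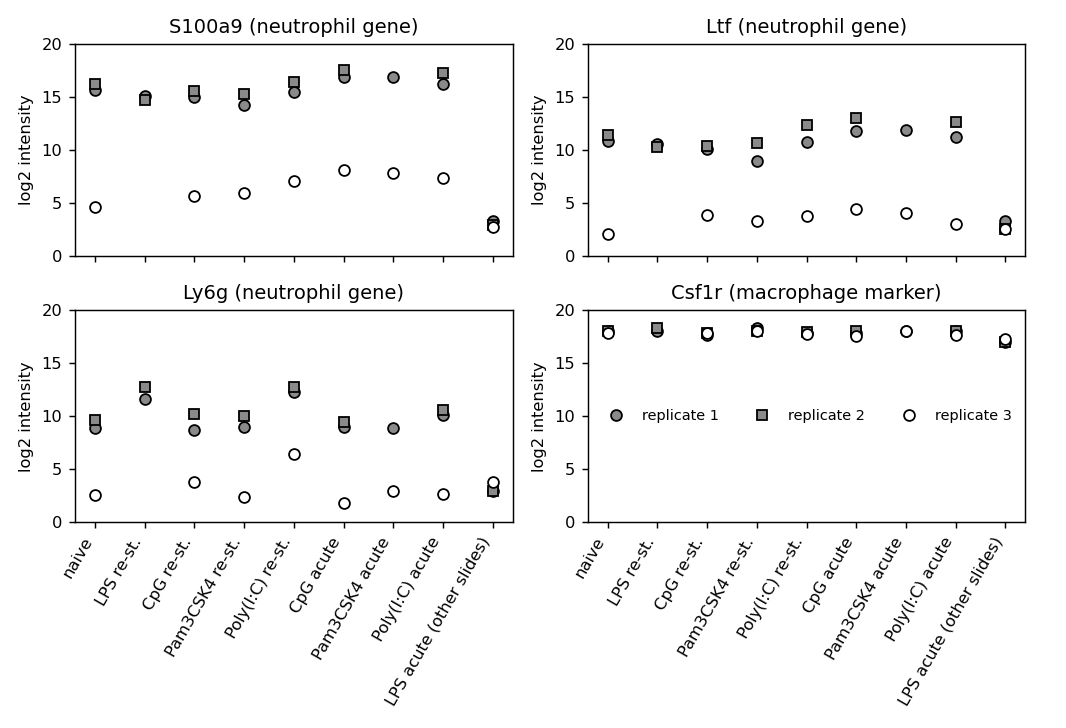
Level (log2 intensity, y axis) of 3 neutrophil genes and of the macrophage gene Csf1r in every group (x axis; re-st., re-stimulated), 1 symbol an array, by replicate. S100a9 lies between 14.25 and 17.57 on slides 1 and 2 and between 4.57 and 8.08 on slide 3 (open circles), while Csf1r lies between 17.54 and 18.30 on these slides. Not every macrophage marker was as even: Cx3cr1, not shown, was at 12.14, 13.03 and 8.98 on naïve arrays 1 to 3. The LPS acute arrays came from other slides.

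Macrophage markers were bright in both groups. All 13 tested, Csf1r, Cd68, Lyz2, Sirpa, Emr1 (the gene of F4/80) and Cd14 among them, were well above background on all 5 arrays, with Lyz2 at 17.44, 17.53 and 17.67 in naïve and 17.29 and 17.30 in LPS re-stimulated cells. Cd14, the LPS co-receptor, rose from 15.39, 15.49 and 15.71 to 16.84 and 16.81, and no other macrophage marker passed the test over the 5 arrays. Without naïve 3, 3 were called higher and 5 lower, Emr1 and Aif1 among the former and Cd68 and Mertk among the latter. Of 49 markers of other cell types on the array, 27 passed the background filter. The rest, among them Ms4a1 and Pax5 of B cells, Cd8a and Ncr1 of T and NK cells, Xcr1 and Clec9a of dendritic cells and Col1a1 and Pdgfra of fibroblasts, were well above background on fewer than 2 arrays in each group. Among the 27, 1 was called higher (the matrix proteoglycan gene Dcn, 4.23) and 1 lower (the integrin gene Itgax or CD11c, -3.22), or 5 and 4 without naïve 3. Over the 5 arrays these shares are near those of all genes tested, 3.74% higher and 3.11% lower. Without naïve 3 the 5 of 27 called higher exceed the 9.53% of all genes, and the 4 called lower lie beside 12.2%. Of the 5 dendritic cell markers tested, to which Itgax belongs, Flt3 (1.75), Zbtb46 (1.67) and Ccr7 (4.18) lay the other way and did not pass over the 5 arrays; without naïve 3, 3 were called higher and 2 lower.

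In LPS re-stimulated cells, genes among the cytokines, chemokines, interferon-stimulated, antimicrobial and arginine-metabolism genes were higher than in naïve cells and genes of mitosis lower. Of 27915 probes tested, 1581 (5.66%) differed between the groups at an adjusted p under 0.05 (limma, Benjamini-Hochberg) and by at least 1.5-fold, 913 higher and 668 lower in LPS re-stimulated cells. With 1 probe a gene, 524 of 14025 genes (3.74%) were higher and 436 (3.11%) lower. The arrays of the groups did not overlap for any of the 1581 probes, nor for 48.1% of all probes tested.

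Without naïve 3 the same test called 5339 probes, all of the 1581 among them, and 1336 genes (9.53%) higher and 1714 (12.2%) lower. With the replicate number as a block, which compares arrays within slides 1 and 2, it called 4757 probes, 1572 of them shared. Naïve 3 is alone in its block and does not enter the difference, so this fit and that without naïve 3 rest on the same arrays. These counts rest on few arrays. No probe was called without naïve 1, without LPS re-stimulated 1 or without LPS re-stimulated 2, and 8 were called without naïve 2, while 5739, 4705, 3801 and 5331 probes then had an unadjusted p under 0.05.

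**Figure D2:**
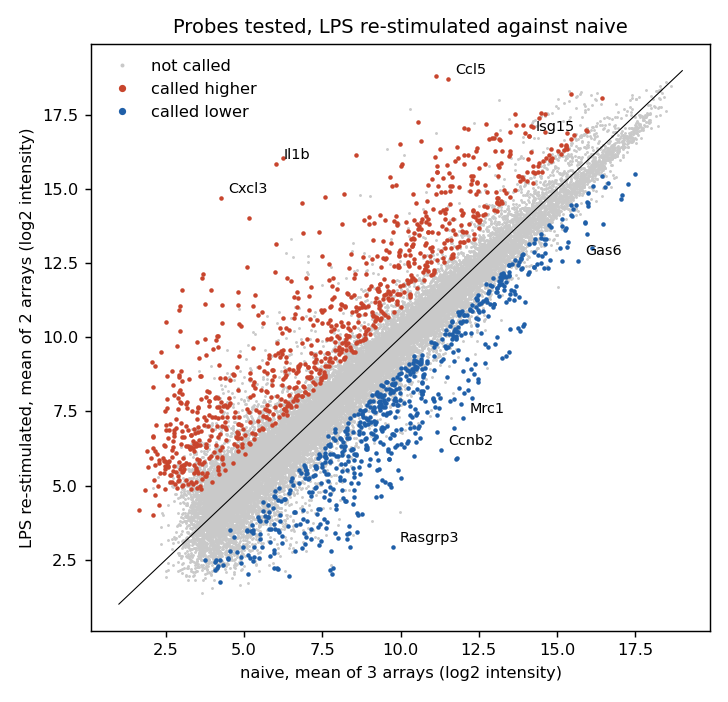
Mean level of every probe tested in naïve (x axis, 3 arrays) and LPS re-stimulated BMDM (y axis, 2 arrays), log2 intensity; red and blue points are the 913 probes called higher and the 668 called lower, and the line marks equal levels. Ccl5 lies at 11.51 and 18.72, and Rasgrp3 at 9.75 and 2.92.

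Among chemokines, the secreted proteins that attract leukocytes, 8 of 20 genes tested rose and none fell, with a median log2 change of 3.89 beside -0.03 over all genes tested. Of all genes, 3.74% rose and 3.11% fell. Cxcl3, a chemokine for neutrophils, showed the largest change of all genes called. It was at 2.90, 4.10 and 5.76 in naïve and at 14.16 and 15.25 in LPS re-stimulated cells, a log2 change of 10.45 (SE 0.91, adjusted p = 0.0148 by limma). The naïve levels were near background, and its probe at chr5:91216694-91216753 (mm9, plus strand) was well above background on 1 of 3 naïve arrays. Ccl5 (RANTES), which attracts T cells and monocytes, was at 11.33, 11.92 and 11.27 against 18.72 on both LPS re-stimulated arrays, near the top of the normalized scale (change 7.21, SE 0.27, adjusted p = 0.00796 by limma). Cxcl9 and Cxcl10 share the receptor CXCR3 on activated T cells. Cxcl10 went from 6.89, 8.89 and 9.96 to 15.71 and 16.57, and Cxcl9 was not well above background on any naïve array and at least 231-fold higher in LPS re-stimulated cells. Cxcl5, likewise below background in naïve cells, was at least 137-fold higher.

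Some chemokines were high in naïve 3 alone. Cxcl1 was at 4.22, 5.73 and 9.10 against 12.50 and 13.20, and Cxcl2 at 4.85, 6.49 and 9.73 against 11.92 and 13.19. Neither passed the test over the 5 arrays (adjusted p = 0.0726 and 0.099 by limma), though their groups did not overlap, and both were called without naïve 3. Groups did not overlap for 51.1% of all genes tested. Without naïve 3, 13 chemokines rose and 2, Ccl6 and Cx3cl1, fell, beside 9.53% and 12.2% of all genes.

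The cytokine list held 19 genes tested, of which 8 rose and none fell (median 2.52), and 12 rose without naïve 3. The shares of all genes that rose were 3.74%, and 9.53% without naïve 3. Il1b, the precursor of the fever cytokine interleukin 1β, went from 4.70, 6.71 and 6.64 to 15.57 and 16.13. The change was 9.84 (SE 0.70, adjusted p = 0.0101 by limma). Il6 was at 2.84, 2.47 and 3.55 in naïve cells and at 11.19 and 10.92 after LPS (8.10, SE 0.37, adjusted p = 0.00796 by limma). Il1a rose by 6.19, Il12b, the shared subunit of interleukins 12 and 23, by 4.19, and Ifnb1, the gene of interferon β, by 5.88. Ifnb1 was at 3.13, 2.95 and 2.93 in naïve cells, well above background on 1 of 3 arrays, and at 8.30 and 9.47 in LPS re-stimulated cells. The inhibitory Il18bp, which binds interleukin 18, rose by 3.37.

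Tnf, the gene of tumour necrosis factor, was a different case. It was at 9.0, 9.53 and 13.44 in naïve cells against 13.84 and 13.94, so that naïve 3 lay beside the LPS re-stimulated arrays. The log2 change of 3.23 did not pass the test (SE 1.42, adjusted p = 0.231 by limma). On slides 1 and 2 alone the differences were 4.85 and 4.41, and the gene was called without naïve 3 (adjusted p = 0.00357 by limma). Il10, which restrains macrophage activation, was at 4.73, 5.49 and 8.45 against 6.82 and 5.93. The groups overlapped. Neither the change of 0.15 over the 5 arrays (adjusted p = 0.949 by limma) nor that of 1.27 without naïve 3 (adjusted p = 0.103 by limma) passed the test.

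**Figure D3:**
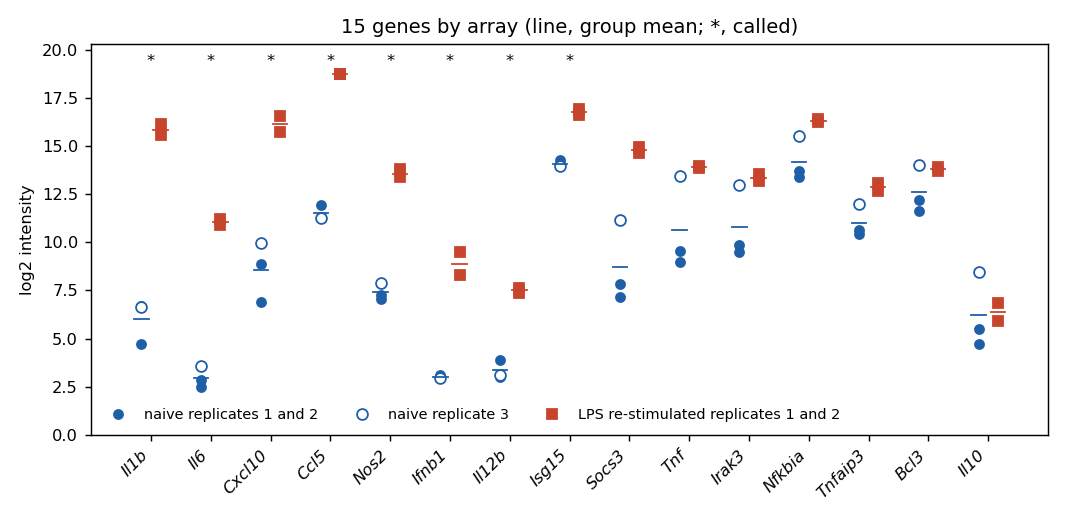
Level (log2 intensity, y axis) of 15 genes on each of the 5 arrays; circles are naïve arrays with replicate 3 open, squares are LPS re-stimulated arrays, lines are group means and asterisks mark genes called over the 5 arrays. For Tnf, naïve replicate 3 (13.44) lies beside the LPS re-stimulated arrays (13.84 and 13.94), whereas for Il6 it lies at 3.55, far below 11.19 and 10.92.

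NF-κB acts on such genes through κB sites in their promoters. The motif GGANTTTCC, read on both strands in the 250 bases before the start site (RefSeq, GRCm38.p6), was found in 1.05% of all 27025 promoters of the reference table and in 1.10% of those of the genes tested. It was found in 14 of 397 promoters of genes called higher (3.53%), in 4 of 12 of the chemokine list and 3 of 13 of the cytokine list, as far as promoters were in the table. A match is a description of the sequence and not a measured site. Stretches of 70 bases around the match, on the gene's strand with the match in capitals, are shown for 3 genes that rose: a chemokine, a cytokine and interferon β. They were chosen after their values were seen.
Cxcl3 (chr5:90785991-90786060, plus strand): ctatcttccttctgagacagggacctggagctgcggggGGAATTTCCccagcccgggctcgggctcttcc
Il6 (chr5:30013034-30013103, plus strand): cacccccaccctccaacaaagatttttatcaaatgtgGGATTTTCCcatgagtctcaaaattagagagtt
Ifnb1 (chr4:88522865-88522934, minus strand): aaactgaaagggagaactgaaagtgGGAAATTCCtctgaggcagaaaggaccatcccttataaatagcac
The first match base lies 72, 43 and 115 bases before the start site, respectively.

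The type I interferon response was measured with 44 genes, all tested, of which 23 rose and none fell (median 1.40), and 29 rose without naïve 3. Of all genes, 3.74% rose, or 9.53% without naïve 3. By role, 13 of 22 antiviral effectors, 6 of 8 interferon-inducible GTPases, 2 of 3 negative regulators, 1 of 6 sensors and 1 of 5 transcription factors rose. Oasl1, an oligoadenylate synthetase-like protein that restrains Irf7 translation, changed most in the list. It was at 12.40, 12.67 and 11.39 in naïve cells and at 16.97 and 17.09 in LPS re-stimulated cells (4.87, SE 0.43, adjusted p = 0.015 by limma). Gbp6, a guanylate-binding protein that acts at pathogen vacuoles, went from 6.41, 6.73 and 6.99 to 11.41 and 11.26 (4.62, adjusted p = 0.00849 by limma).

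Isg15, a ubiquitin-like modifier, rose from a high level, 14.04, 14.26 and 13.96, to 16.94 and 16.62. Irf7, the master factor of late interferon genes, rose by 3.98, and the sensor of Z-form nucleic acid Zbp1 by 3.38. Rsad2 (viperin) rose by 3.30, the GTPase gene Mx1 by 3.1 and Ifit1, which binds viral RNA, by 2.70. The inhibitors of interferon signalling rose beside the effectors: Socs1 by 3.28 and Usp18, the protease that removes Isg15, by 1.62. Members that did not pass the test included Oas2 (-0.08), the cGAS gene E330016A19Rik (0.07) and Ifit3 (1.24, adjusted p = 0.238 by limma). Ifit3 was at 12.98, 13.20 and 11.55 against 13.97 and 13.66, so that its groups did not overlap but differed by less than naïve 3 did from naïve 1 and 2.

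The core of the interferon-stimulated response element, GAAANNGAA on either strand, was found in 7.16% of all promoters of the table, in 6.49% of those of genes tested and in 13.1% (52 of 397) of those of genes called higher. In the interferon list it was found in 17 of 33 promoters (51.5%). Neither of the 2 members with the largest change could be shown, since the Oasl1 window held no match and Gbp6 had no entry, so Isg15 and Ifit1 are given, chosen after their values were seen. Capitals mark matches, 3 in each, of which those of Isg15 and the first 2 of Ifit1 overlap; a κB match in the Isg15 stretch stands in lower case.
Isg15 (chr4:156200839-156200908, minus strand): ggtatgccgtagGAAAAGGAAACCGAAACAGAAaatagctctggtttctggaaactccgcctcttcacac
Ifit1 (chr19:34640759-34640828, plus strand): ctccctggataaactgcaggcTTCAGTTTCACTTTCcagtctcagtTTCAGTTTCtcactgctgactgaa

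Antimicrobial and acute phase genes had the highest list median, 3.96, with 9 of 22 tested called higher and none lower (15 and none without naïve 3). Among all genes 3.74% were called higher, or 9.53% without naïve 3. Cfb, complement factor B of the alternative pathway, was at 5.67, 6.04 and 6.98 in naïve cells and at 16.17 and 15.92 in LPS re-stimulated cells (9.82, SE 0.43, adjusted p = 0.00796 by limma). The serum amyloid genes moved together: Saa3 rose by 7.70, Saa1 by 6.74 and Saa2, below background on all naïve arrays, at least 34.0-fold. Saa3 stood at 18.82, the top of the normalized scale, which caps its change, on both LPS re-stimulated arrays and at 9.77, 10.07 and 13.51 on the naïve arrays. Lcn2 (lipocalin 2), which withholds iron from bacteria by binding their siderophores, rose by 6.54, the haemoglobin-binding Hp by 5.95 and the protease inhibitor Slpi by 3.89. The list also holds the neutrophil genes Ltf and Camp, neither of which was called. The formyl peptide receptor Fpr1 was at 6.69, 7.67 and 14.36 against 16.31 and 16.38 and passed without naïve 3 but not over the 5 arrays.

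Of the 13 genes tested for arginine, nitric oxide, itaconate and prostaglandin enzymes 8 rose and none fell (median 3.68), and 10 rose and 1, Ptgs1 (cyclooxygenase 1), fell without naïve 3. The shares of all genes were 3.74% higher and 3.11% lower, or 9.53% and 12.2% without naïve 3. Nos2, the inducible nitric oxide synthase, which makes nitric oxide from arginine, rose from 7.05, 7.28 and 7.88 to 13.37 and 13.78 (6.17, adjusted p = 0.00849 by limma). Genes that supply this enzyme rose too: the arginine transporter Slc7a2 by 6.70, Ass1, which remakes arginine from citrulline, by 3.90, and Gch1, the first enzyme of the synthase's cofactor, by 1.96. Ptgs2 (cyclooxygenase 2) rose by 8.46 and Ptges, which makes prostaglandin E2 from its product, by 2.06. Irg1, the itaconate-producing enzyme now named Acod1, was at 8.09, 9.08 and 13.77 against 17.59 and 17.82 and passed without naïve 3 but not over the 5 arrays (adjusted p = 0.0785 by limma).

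Further genes among the 10 largest rises were Serpinb2, an inhibitor of urokinase (8.86), Ly6f of the Ly6 family (8.38) and Tarm1, an activating receptor of myeloid cells (8.00). Ly6f was at 3.90, 5.13 and 1.90 in naïve cells and at 11.82 and 12.23 in LPS re-stimulated cells.

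**Figure D4:**
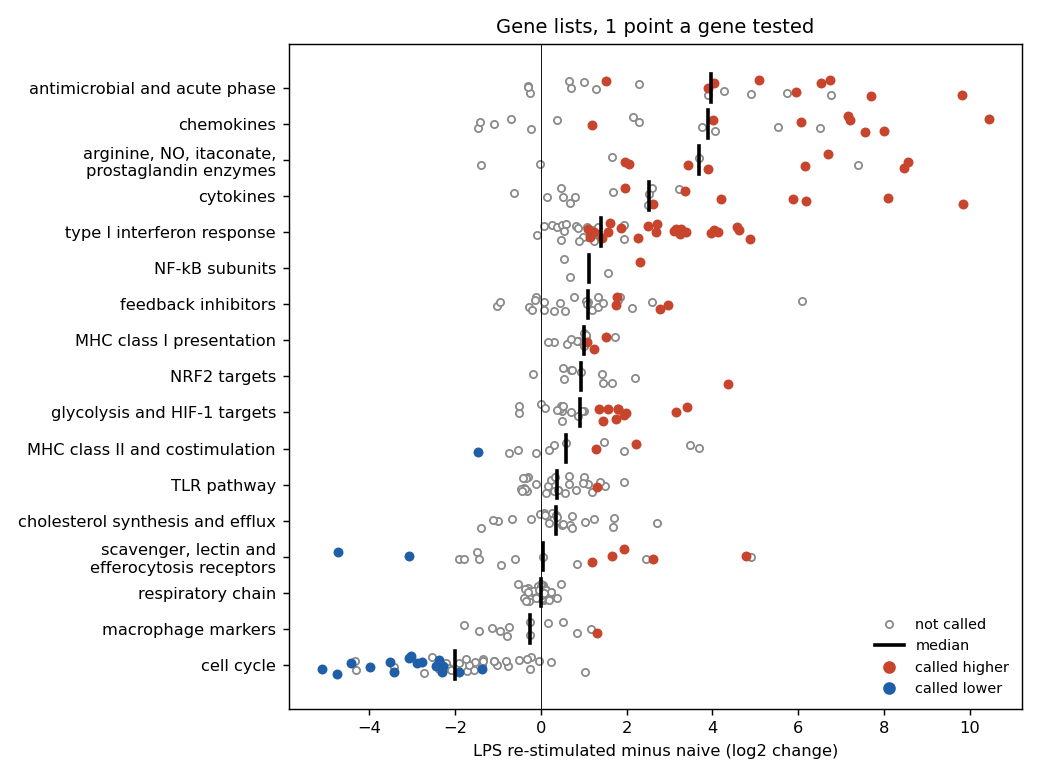
Log2 change of LPS re-stimulated against naïve BMDM (x axis) for every gene tested in 17 gene lists (y axis, ordered by median; points are spread vertically for legibility); filled red and blue points are genes called higher and lower over the 5 arrays, black bars list medians. The cell cycle list lies furthest left (median -2.0) and the antimicrobial list furthest right (median 3.96), and the respiratory chain list lies within 0.53 of 0 on either side.

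Of 28 genes of the TLR pathway tested, Cd14 was called, with a change of 1.30, and no other, a share near the 3.74% of all genes that were higher. Tlr4 was at 11.43, 11.29 and 10.58 against 10.40 and 11.02 (-0.39, adjusted p = 0.535 by limma), and the MD-2 gene Ly96 at 12.15, 11.89 and 12.37 against 12.69 and 12.40. Without naïve 3, 8 of the 28 were higher and none lower, beside 9.53% and 12.2% of all genes, among them Tlr2, Myd88 and Ticam2. Of 4 NF-κB subunit genes Nfkb2, which encodes p100 and p52, rose by 2.32 (adjusted p = 0.0443 by limma); Rela differed by 0.55 and Nfkb1 by 0.68, and neither passed. Without naïve 3, Nfkb2 and Relb were called higher.

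Of 28 feedback inhibitors of TLR and cytokine signalling, 4 rose over the 5 arrays and 15 without naïve 3, where 1 fell. Of all genes, 3.74% rose over the 5 arrays, and 9.53% rose and 12.2% fell without naïve 3. Peli1, a ubiquitin ligase of the pathway, was at 11.18, 11.22 and 11.41 against 14.05 and 14.42 (2.97, adjusted p = 0.0101 by limma). The IκB genes Nfkbie and Nfkbib rose by 2.77 and 1.77, and the MAP kinase phosphatase Dusp16 by 1.76. Irak3 (IRAK-M), which blocks the receptor complex, was at 9.49, 9.88 and 12.95 against 13.56 and 13.16, and Socs3, the inhibitor of interleukin 6 signalling, at 7.14, 7.82 and 11.15 against 14.96 and 14.64. Nfkbia (IκBα) was at 13.37, 13.69 and 15.53 against 16.41 and 16.24, and Tnfaip3 (A20) at 10.41, 10.64 and 11.98 against 12.65 and 13.07. For all 4 the groups did not overlap, as for 51.1% of all genes tested, and naïve 3 lay closest to the LPS re-stimulated arrays. The 4 genes passed without naïve 3 and with the block, which rest on the same arrays, but not over the 5 arrays. Bcl3, an atypical IκB that holds p50 on DNA, overlapped. It was at 11.63 and 12.19 on naïve arrays 1 and 2 and at 13.71 and 13.90 after LPS, with naïve 3 above both LPS re-stimulated arrays, and the differences within slides 1 and 2 were 2.08 and 1.71. It too was called without naïve 3 (adjusted p = 0.0142 by limma) and with the block (adjusted p = 0.0195 by limma), and not over the 5 arrays.

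Of 14 genes of class I antigen presentation tested 3 rose and none fell (median 1.01), or 8 and none without naïve 3, and none of the 4 class I genes themselves passed over the 5 arrays. Those that rose were Tapbpl, a peptide editor, which went from 9.45, 9.43 and 9.27 to 10.94 and 10.87, and the immunoproteasome subunits Psmb8 and Psmb10, by 1.25 and 1.07. Tapbpl and Psmb10 were not called where the 14 arrays of the naïve and all re-stimulated groups were fitted together (adjusted p = 0.0822 for Tapbpl by limma). None of 6 class II genes passed over the 5 arrays, with H2-Ab1 at 12.63, 12.65 and 11.76 against 13.91 and 13.73, which was called without naïve 3. Of all 13 class II and costimulation genes, 2 rose and 1 fell, or 6 and 1 without naïve 3. Of all genes, 3.74% rose and 3.11% fell, or 9.53% and 12.2% without naïve 3. Among 7 costimulatory and checkpoint genes, the PD-1 ligands Cd274 (PD-L1) and Pdcd1lg2 (PD-L2) rose by 2.21 and 1.28. Cd80, a ligand of CD28 and CTLA-4, fell from 11.57, 11.86 and 11.77 to 10.15 and 10.38 (-1.46, adjusted p = 0.0304 by limma). For Pdcd1lg2 and for Cd80, 1 of 2 tested probes was called.

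Of 17 genes of uptake, of which Gas6 encodes a ligand rather than a receptor, 5 were higher and 2 lower (median 0.06), or 6 and 7 without naïve 3. All genes went in both directions too, with 3.74% higher and 3.11% lower, or 9.53% and 12.2% without naïve 3. Olr1, the receptor for oxidized low density lipoprotein, rose by 4.79, the scavenger receptor Msr1 by 1.66 and the activating lectin Clec5a by 2.61. Mrc1, the mannose receptor CD206, fell from 12.00, 12.62 and 11.35 to 7.77 and 6.78 (-4.72, SE 0.50, adjusted p = 0.021 by limma). Gas6, which bridges dying cells to the receptors Mertk and Axl, fell from 15.58, 15.89 and 15.51 to 12.42 and 12.76 (-3.07, SE 0.23, adjusted p = 0.0104 by limma). Mertk itself was at 11.58, 11.30 and 10.21 against 9.63 and 8.85 and was called without naïve 3 but not over the 5 arrays. Marco showed the widest naïve spread of the list, 9.99, 11.42 and 17.97, against 18.61 and 17.42 in LPS re-stimulated cells.

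In the cell cycle list 16 of 46 genes tested fell and none rose (median -2.0), and 33 were lower without naïve 3. Of all genes, 3.11% fell over the 5 arrays and 12.2% without naïve 3. None of the 46 was called with LPS re-stimulated replicate 3 included or without the filter on dim probes, where 135 and 316 probes were called in all. By role, 11 of 22 mitosis genes (median -2.74), 4 of 20 replication genes (median -1.46) and 1 of 4 inhibitors (Cdkn2c, -2.44) fell. Ccnb2, cyclin B2 of mitotic entry, was at 11.68, 11.91 and 10.31 in naïve cells and at 7.05 and 5.36 in LPS re-stimulated cells (-5.10, SE 0.72, adjusted p = 0.032 by limma). Ccna2, cyclin A2, was at 10.50, 10.32 and 9.17 against 6.32 and 4.18. The kinase gene Plk1 fell by 4.43, Birc5 (survivin) by 3.97 and the replication helicase genes Mcm2, Mcm7 and Mcm6 by 2.31, 2.27 and 1.90. For each of these LPS re-stimulated 2 lay below LPS re-stimulated 1, and for each but Mcm2 naïve 3 lay below naïve 1 and 2. Their groups did not overlap, as for 51.1% of all genes tested. Mki67 (-1.35, adjusted p = 0.187 by limma) and Pcna (-1.02, adjusted p = 0.0813 by limma) did not pass over the 5 arrays and did without naïve 3. The cyclin-dependent kinase inhibitor gene Cdkn1a (p21) was at 13.02, 13.07 and 12.95 against 13.14 and 13.36.

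Cell cycle promoters are known for 2 motifs, the E2F site of replication genes and the CHR of mitotic genes. The letters TTTNGCGC, for E2F, were found on either strand in 5 of 39 promoters of the list (12.8%), beside 1.15% of all promoters and 1.92% of those of genes tested. TTTGAA, for the CHR, was found in 10 of 39 (25.6%), beside 16.3% of all promoters and 11.2% of those of genes tested. Among genes called lower as a whole the shares were 1.82% and 13.0%, and among genes called higher 0.756% and 14.1%. The CHR letters were also found in 7 of 33 promoters of the interferon list (21.2%). Ccnb2 is shown as the named gene of the list with a match and the largest change, and Cdc20 and Mcm6, chosen after their values were seen, as a mitotic and a replication gene; capitals mark the CHR letters in Ccnb2 and Cdc20 and the 3 E2F matches in Mcm6, the first 2 of which overlap.
Ccnb2 (chr9:70421685-70421754, minus strand): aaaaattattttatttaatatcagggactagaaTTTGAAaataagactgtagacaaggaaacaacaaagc
Cdc20 (chr4:118437344-118437423, minus strand): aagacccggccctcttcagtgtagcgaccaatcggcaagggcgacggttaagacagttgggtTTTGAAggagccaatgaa
Mcm6 (chr1:128359736-128359825, minus strand): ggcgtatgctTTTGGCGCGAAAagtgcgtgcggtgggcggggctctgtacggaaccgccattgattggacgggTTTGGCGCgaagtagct

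Among all genes, the largest fall was that of Rasgrp3, a guanine nucleotide exchange factor for Ras and Rap. It was at 10.01, 10.23 and 9.01 in naïve cells and was not well above background on either LPS re-stimulated array, which makes it at least 114-fold lower (adjusted p = 0.00949 by limma; probe at chr17:75928310-75928369, mm9, plus strand). Other genes among the 10 largest falls were likewise not well above background after LPS and are given by their bounds. Aspm, a protein of the mitotic spindle pole, was at least 40.5-fold lower, and Chn2, a GTPase-activating protein for Rac, at least 31.8-fold. Bmp2, a ligand of the TGF-β family, was at least 30.9-fold lower and Nanos1, a translational repressor, at least 34.0-fold. Armc2, below background too, was at least 43.8-fold lower. For Chn2 and for Nanos1, 1 of 2 tested probes was called. Mamdc2 fell from 12.67, 11.87 and 10.79 to 5.98 and 5.82, Pcp4l1 from 12.03, 12.30 and 11.08 to 6.11 and 5.78, and the mitotic gene Fam64a (Pimreg in RefSeq) by 5.18.

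Metabolic genes divided by pathway. Of 24 genes of glycolysis and of the hypoxia factor HIF-1 and its targets 10 rose and none fell (median 0.91), and 12 rose and 1, the glucose transporter gene Slc2a3, fell without naïve 3. Among all genes 3.74% rose and 3.11% fell, or 9.53% and 12.2% without naïve 3. None of the 24 was called with LPS re-stimulated replicate 3 included, and 2 were called without the filter on dim probes. Hif1a rose from 10.86, 10.43 and 10.45 to 12.60 and 12.16, its target Egln3, a prolyl hydroxylase, by 3.40 and the lactate exporter Slc16a3 by 3.16. The glucose transporter Slc2a1 rose by 1.75, the kinases Pfkl and Pfkfb3, which set glycolytic flux, by 1.95 and 1.81, and Tpi1 and Pgk1 by 1.56 and 1.36. Vegfa, another HIF-1 target, was at 10.81, 10.85 and 9.94 against 10.96 and 10.85 and did not pass. None of 41 genes of the respiratory chain was called by limma over the 5 arrays, without naïve 3, with the block or in the fit of 14 arrays. Over the 5 arrays this lay beside 3.74% higher and 3.11% lower of all genes. In fits added after the data were seen, 1 was called higher with 14 arrays and the block, and 1 with replicates 1 and 2 only. Their median change was 0.00, and the single changes ran from -0.53 (Ndufs1) to 0.47 (Cyc1).

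The LPS re-stimulated arrays were then set against the other re-stimulated groups, which shared the same slides, in 1 fit of 14 arrays with the naïve arrays. These groups received CpG DNA, 100 ng/ml Pam3CSK4 or 10 µg/ml Poly(I:C) for 24 h and again for 4 h, with 3 arrays each, and the 3 contrasts share the LPS arrays. Since the other groups held a replicate 3 and the LPS group did not, each contrast was also run on slides 1 and 2 alone. That run, added after the data were seen, gave more calls than the fit of 14 arrays in all 3 contrasts.

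Against Pam3CSK4, a TLR2 ligand that does not engage TRIF, the interferon response separated the groups. Of 44 interferon-response genes 29 were higher with LPS and none lower (median difference 1.89), beside 0.941% higher and 0.105% lower of all 14351 genes tested. On slides 1 and 2, 42 were higher and none lower, beside 4.21% and 1.99%. Ifnb1 was at 8.30 and 9.47 with LPS and at 3.55, 3.38 and 4.71 with Pam3CSK4 (difference 5.0, adjusted p = 0.00967 by limma), where naïve cells were at 3.13, 2.95 and 2.93. Ifit1 was at 12.85 and 13.32 with LPS and 9.50 on average with Pam3CSK4, below its naïve mean of 10.38. The 3 genes with the largest differences were Gm14446 (7.21; Ifit1bl1 in RefSeq), Apol9b (5.43) and BC094916 (Ifi214 in RefSeq), which was not well above background with Pam3CSK4 and at least 54.5-fold higher with LPS. Cxcl10 was higher by 5.03 and Ccl5 by 1.53. Lower with LPS by the most were the lectin gene Cd209g (-3.44) and the cytokine genes Csf2 and Il12a, which were not well above background with LPS and at least 6.92-fold and 5.91-fold lower. With the replicate block Cd209g was not called (adjusted p = 0.058 by limma).

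Against Poly(I:C), the TLR3 ligand, the interferon genes lay the other way. The part of the adapters in these contrasts was not tested. None of the 44 was higher with LPS and 5 were lower (median -1.15), beside 0.258% higher and 0.641% lower of all genes tested. On slides 1 and 2, 29 were lower and none higher, beside 4.3% lower and 4.21% higher. Ifnb1 was at 13.41, 11.31 and 12.69 with Poly(I:C) and lower with LPS by 3.59 (adjusted p = 0.0243 by limma). Irf1 was lower by 1.83 and the GTPase genes Igtp and Tgtp1 by 1.81 and 2.51. The largest differences were those of Serpinh1, a collagen chaperone (at least 103-fold lower with LPS), Gm106 (at least 88.7-fold lower) and Ptprg, a receptor phosphatase (-6.24). Serpinh1 was at 10.66, 8.41 and 8.94 with Poly(I:C), against 2.67 and 2.64 with LPS and 4.40, 3.14 and 5.21 in naïve cells.

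Other genes were higher with LPS than with Poly(I:C). Cxcl5, not well above background with Poly(I:C), was at least 90.1-fold higher. U90926, a transcript with no function given here, was higher by 6.91. Il1b was at 15.57 and 16.13 against 11.05, 11.91 and 13.50 (3.70, adjusted p = 0.0498 by limma). With the replicate block U90926 was not called (adjusted p = 0.0781 by limma).

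Against CpG, the TLR9 ligand, few genes differed: none was called higher with LPS and 1 of 14351 (0.00697%), Areg, was lower. Areg, the growth factor amphiregulin, averaged 3.15 with LPS and 6.02 with CpG (at least 7.31-fold lower, since it was not well above background with LPS; adjusted p = 0.0341 by limma), and was not called with the replicate block (adjusted p = 0.135 by limma). On slides 1 and 2 alone 171 genes (1.19%) were higher and 97 (0.676%) lower, and 10 interferon genes were higher and none lower. Il6 was among those lower there: it was at 11.19 and 10.92 with LPS and at 14.95, 15.48 and 15.87 with CpG. The difference of -4.38 did not pass over 14 arrays (adjusted p = 0.226 by limma) and did on slides 1 and 2 (adjusted p = 0.00669 by limma). Il10 behaved alike, at 6.82 and 5.93 with LPS against 10.88, 9.79 and 11.43 with CpG (adjusted p = 0.37 over 14 arrays and 0.0137 on slides 1 and 2 by limma). A small count over 14 arrays does not show that LPS and CpG acted alike.

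**Figure D5:**
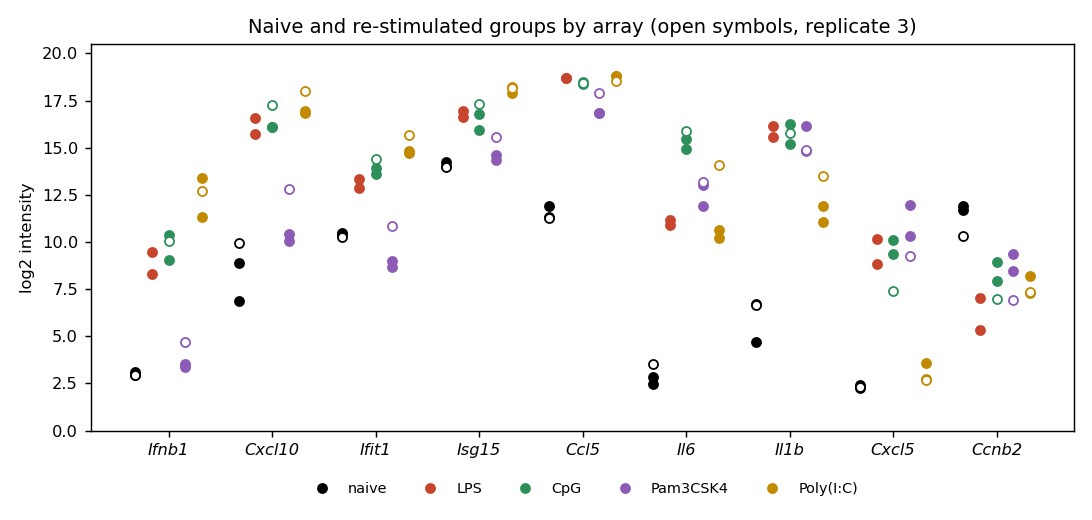
Level (log2 intensity, y axis) of 9 genes on every array of the naïve and the 4 re-stimulated groups, by ligand; open symbols are replicate 3, which the LPS group lacks. Ifnb1 lies at 8.30 and 9.47 with LPS, above all naïve and Pam3CSK4 arrays (highest 4.71) and below all Poly(I:C) arrays (lowest 11.31).

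These contrasts rest on both LPS re-stimulated arrays. Without LPS re-stimulated 2 the counts of probes fell from 276 to 0 against Pam3CSK4, from 257 to 1 against Poly(I:C) and from 2 to 0 against CpG, and without LPS re-stimulated 1 they were 13, 21 and 7.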

How the data were processed

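RNA of each culture was labelled with Cy3 and hybridised to a 1-colour Agilent mouse array. The authors corrected the scanner intensities for background (RMA) and quantile normalized them, and the deposited table holds the resulting log2 values for 25 of 27 arrays. For the left-out LPS re-stimulated array scanner intensities alone were used, and the other array without them, of Pam3CSK4 acute, was not used here. The log2 values could be remade from the deposited intensities of the scanner files. Probe positions are those of the file headers (mm9), names those of the files, with RefSeq symbols where an accession matched (26762 of 55681 probes).

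Probes well above background (scanner flag) on at least 2 arrays of either group were tested with limma 3.58.1 in R 4.3.3, which was tested on simulated data, with Benjamini-Hochberg adjustment over all of them; probes were called where the adjusted p was below 0.05 and the levels differed 1.5-fold or more. The simulated noise of a probe had the same spread on all 5 arrays, so that check did not cover an array that stands apart, as naïve 3 did. Each gene stands for its probe with the highest mean over the 5 arrays. A gene not well above background on any array of a group is given by a bound, against the higher, per array, of its own level and the lowest level of any probe well above background.

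The genes named are 15 set genes, the 2 largest called rises and falls of each list, the 10 largest rises and falls and the 3 largest differences each way in each contrast. Some genes that this rule or a list holds are not reported here. Others in the lists are named to describe them and were chosen after their values were seen. Members, lists and rules were chosen with earlier results of these data known. Replicate numbers match slides 1 to 3 per the scanner files, except for LPS acute, which lay on other slides. Deviations from the group means correlated at 0.08 and 0.09 between naïve and LPS re-stimulated arrays of the same number, over 2 pairs, and at 0.12 to 0.30 between naïve arrays and the other re-stimulated groups. Arrays have no read depth: the number of arrays limits the precision. Alternatives covered the normalization, the filter, the fit, the block and each array left out.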

Additional observations from a re-analysis of the deposited data

Results flagged for a closer look

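The array of LPS re-stimulated replicate 3, which the comparison did not use, was set against the naïve arrays from its scanner intensities, normalized together with the 25 arrays that have deposited values. It had 92.3% of probes well above background, more than any of the 5 arrays compared, and a median raw signal of 315. Of the 524 genes called higher, 71.2% (373) lay above all naïve arrays on it and 91 lay below all of them. Of the 436 called lower, 87.6% (382) lay below all naïve arrays and 39 above. The same shares were 25.7% among the 6176 genes that were higher but not called, of which 3442 lay below all naïve arrays, and 69.5% among the 6796 that were lower but not called. Il6 was at 13.00, Il12b at 12.42, Il1b at 14.94 and Tnf at 14.94 on it, and Ifnb1 at 3.02, below the highest naïve array (3.73). Its neutrophil genes S100a9 (5.49), Ltf (2.82) and Ly6g (4.83) were low, as on naïve 3, while Ngp (10.67 against 7.17), S100a8 (13.36 against 10.42), Camp (9.60 against 6.37) and Cxcr2 (7.42 against 5.52) lay above naïve 3 in the same normalization. The part of its brightness in these values was not tested.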

How the results depend on the processing

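The 1581 probes called became 3509 with the scanner's processed signal, 3893 with normexp correction, 316 without the filter, 3355 with slide as a random effect, 3699 with an intensity trend, 5086 and 4662 in fits of 9 groups and of the naïve and 4 re-stimulated groups, and 135 with LPS re-stimulated replicate 3 included. With the replicate number as a block they became 4757. Median scaling gave 1375, 1042 higher and 333 lower against 913 and 668, with the median of all probes shifted by 0.40. Leaving out 1 array gave 0 to 5339, where a lone LPS re-stimulated array is assumed to vary like the naïve ones. Fits added after the data were seen gave 5593 (14 arrays with the block), 6626 (replicates 1 and 2 only) and 4893 (14 arrays without naïve 3).

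Of 48 genes named and called, 48 kept their call without naïve 3 and with the block, 42 with median scaling, 31 without the filter, 22 with LPS re-stimulated replicate 3, 3 without naïve 2 and 0 without naïve 1 or either LPS re-stimulated array; none turned direction. The fits without naïve 3 and with the block rest on the same arrays. These 48 were set genes, list genes taken by rule or among the largest rises and falls. Genes taken only by a contrast or named to describe a list were not counted. Of the lists with calls over the 5 arrays, those of the cell cycle, class I and class II presentation, TLR pathway, NF-κB subunits and macrophage markers held none with LPS re-stimulated replicate 3 included or without the filter, and those of glycolysis and NRF2 none with that replicate included. Il10, not called (0.15), turned to -0.11 with the processed signal and -0.14 with normexp, and lay between -0.60 and 1.27 with 1 array left out, below 0 without naïve 1, naïve 2 or LPS re-stimulated 1.

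Against CpG, the 2 probes became 1 with the block, 41 in a fit of these groups alone, 19 with median scaling (2 higher and 17 lower), 1 without the filter, 0 to 7 with 1 array left out and 418 on slides 1 and 2. Against Pam3CSK4, 276 became 113 in a fit of these groups alone, 138 with median scaling, 126 without the filter, 0 to 13 without an LPS array, 453 without naïve 3 and 1546 on slides 1 and 2 (231 with the block). Against Poly(I:C), 257 (61 higher and 196 lower with LPS) became 124 in a fit of these groups alone (78 and 46), 244 with median scaling (30 and 214), 134 without the filter (11 and 123), 1 to 21 without an LPS array, 460 without naïve 3 and 2117 on slides 1 and 2 (293 with the block). The cause was not tested in any of these.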

Other observations

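Cholesterol genes did not pass the test over the 5 arrays: none of 23 was called (median 0.35), beside 3.74% higher and 3.11% lower of all genes, and 4 were higher and 4 lower without naïve 3, beside 9.53% and 12.2%. Of 11 targets of NRF2, the factor of the oxidative stress response, Slc7a11, which imports cystine, rose from 6.97, 6.12 and 6.95 to 10.49 and 11.60 (4.37, adjusted p = 0.021 by limma), and 5 rose without naïve 3. Of 5310 probes tested for long noncoding regions, 159 were called, beside 5.66% of all probes. Mpo, the myeloperoxidase of neutrophil precursors, was at 9.82, 10.60 and 2.14 in naïve cells and at 6.44 and 3.22 in LPS re-stimulated cells, so that the LPS re-stimulated arrays lay between naïve 3 and the other naïve arrays.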
